A study of Ursus arctos with 12 samples.

Results

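The genes described here are the 7 that encode the pyruvate dehydrogenase kinases (PDK1, PDK2, PDK3 and PDK4), the catalytic subunits of the pyruvate dehydrogenase phosphatases (PDP1 and PDP2) and the regulatory subunit of the phosphatase (PDPR). They were taken by symbol, and 7 of 7 were found among the 30249 genes of the count table and kept among the 17290 genes tested. The libraries came from the vastus lateralis, a thigh muscle, of 6 free-ranging brown bears (Ursus arctos) aged 2 to 3 years. Each bear gave a biopsy in winter, during hibernation, and another in summer, during the active period, so that 6 winter libraries were compared with 6 summer libraries of the same animals. Season is the only factor by which the labels set the groups apart. Hibernation, fasting, inactivity and the time of year were shared by all winter libraries and cannot be told apart here.

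The pyruvate dehydrogenase complex sits in the mitochondrial matrix and turns pyruvate from glucose into acetyl-CoA, a step that animals cannot reverse. The kinases phosphorylate its E1 alpha subunit, PDHA1, and switch the complex off, while the phosphatases remove the phosphate and switch it on. In muscle, PDK4 is the classical fasting-induced kinase, under the control of PPAR and FOXO factors and of glucocorticoids, and a high kinase activity spares glucose while fatty acids are burned. The mRNA levels below say nothing of protein amount or phosphorylation, which were not measured in these libraries.

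Read depth ran from 16742406 to 32140160 reads on genes per library. Levels are CPM, read counts scaled to a common library size after TMM scaling, or their log2 with a prior count of 2, and n = 6 bears throughout. The seasons were compared with edgeR (quasi-likelihood test over all genes, with the bear as a block), and a gene was called at a Benjamini-Hochberg adjusted p below 0.05. By this rule, 5 of the 7 genes were called, 2 higher (PDK4 and PDK1) and 3 lower in winter (PDK2, PDK3 and PDP1), where 40.8% of all genes tested were called, 19.6% higher and 21.2% lower. With a stricter rule (adjusted p below 0.01, fold above 1.3 or under 0.77), PDP1 was no longer among them and 4 of the 7 remained, against 25.7% of all genes. This share is high in these libraries, so the number of calls alone does not set the 7 genes apart. The winter and summer libraries did not overlap for 4 of the 7, the 4 kinases, against 17.3% of all genes. The kinases were also the 4 genes that moved alike in every bear, as 37.4% of all genes did. The median log2 fold change was −0.48 for the 7 genes and −0.01 for all genes tested.

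**Figure D1:**
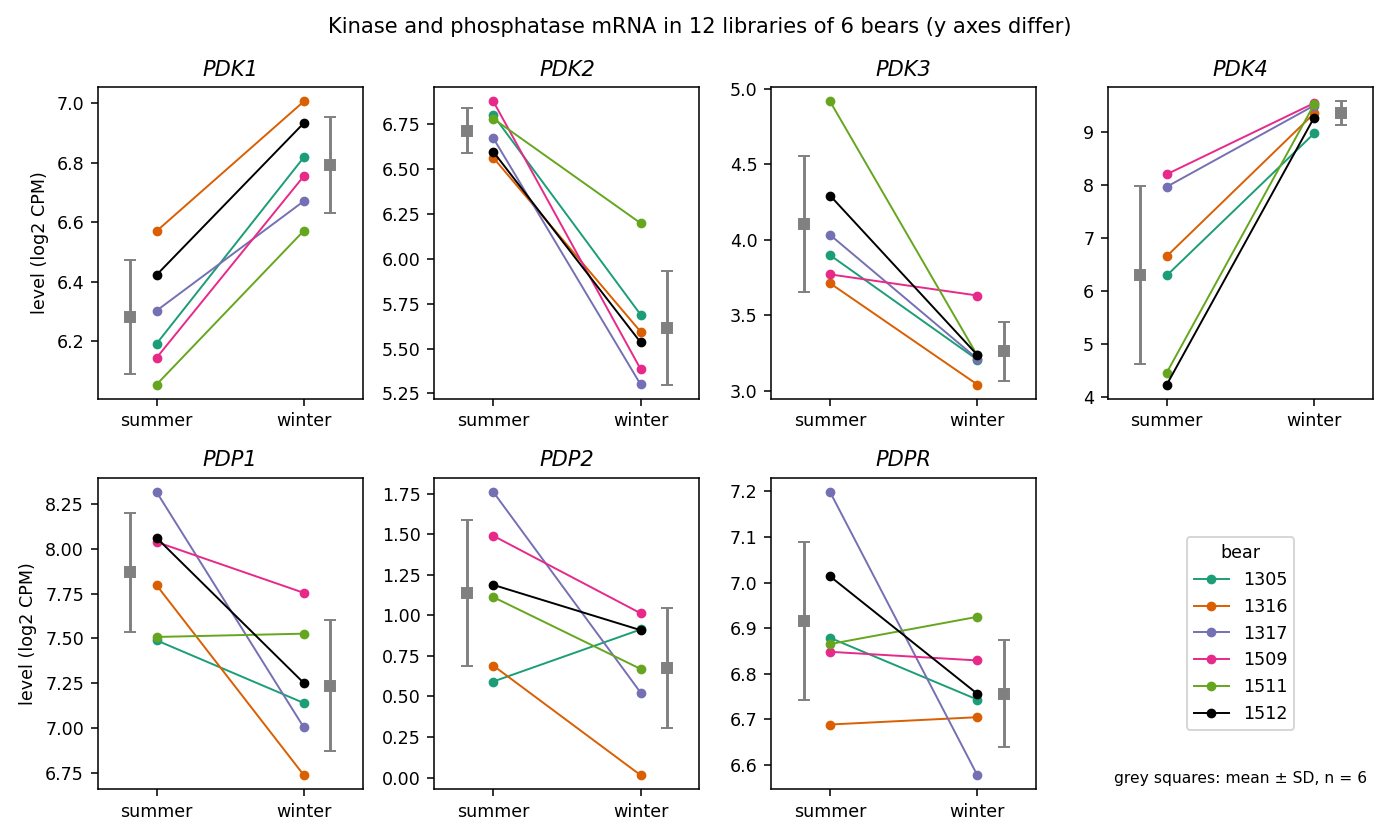
Level (log2 CPM, y axis, a different range in each panel) of the 7 genes in summer and winter, with a line for each of the 6 bears and grey squares for the mean ± SD of a season. The PDK4 lines start between 4.24 and 8.21 in summer and end between 8.98 and 9.55 in winter.

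PDK4 showed the largest change of the 7 genes, and in summer it varied more between bears than in winter. In summer it stood at 18.9 CPM in bear 1512, 22.1 in bear 1511, 78.8 in bear 1305, 101 in bear 1316, 251 in bear 1317 and 296 in bear 1509. In winter it stood at 504 CPM in bear 1305, 620 in bear 1512, 655 in bear 1316, 727 in bear 1317, 737 in bear 1511 and 750 in bear 1509. Every winter library lay above every summer library, the lowest of winter at 1.70 times the highest of summer. The log2 fold change was 3.00 (standard error [SE] 0.52, adjusted p = 0.00128), an 8.0-fold rise, and 1.73% of all genes had a change in either direction of this size or more. Fitted without the bear as a block, the log2 fold change was 2.38 (adjusted p = 0.00454), and the mean CPM of winter was 5.20 times that of summer.

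The single bears differed in the size of the PDK4 rise. It was 5.06 and 5.03 on the log2 scale in bears 1511 and 1512, 2.68 and 2.69 in bears 1305 and 1316, and 1.53 and 1.34 in bears 1317 and 1509. The highest summer library had 15.7 times the PDK4 level of the lowest, whereas the highest winter library had 1.49 times that of the lowest. In summer the SD of log2 CPM was 1.68, and 0.299% of the 11365 genes whose mean reached 1 log2 CPM had an SD as large. In winter it was 0.22, a spread that 65.1% of these genes reached or exceeded. On the log2 scale the bears thus differed far more in summer than in winter. In CPM the spread was closer, with an SD of 118 in summer and 93.9 in winter.

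PDK1, a kinase known as a target of hypoxia-inducible factors, also rose in all 6 bears, by far less and with little difference between bears. It was at 66.3 to 94.924 CPM in summer (median 75.9) and 95.004 to 129 CPM in winter (median 110). The groups met at their edges, since the lowest winter library lay only 1.0008 times above the highest summer library. Its log2 fold change was 0.51 (SE 0.09, adjusted p = 0.00149), from 0.37 to 0.63 in single bears.

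PDK2, the most widely expressed kinase across mammalian tissues, moved the opposite way. Its summer levels were close together, at 94.5 to 118 CPM (median 106), and its winter levels were 39.3 to 73.4 CPM (median 47.2), with no overlap. The log2 fold change was −1.10 (SE 0.13, adjusted p = 0.00012), with all 6 bears lower. Bear 1511 fell least, by 0.58 on the log2 scale, and its winter library was the highest of that season. Bear 1509 fell most, by 1.49.

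PDK3, the kinase with the fewest reads (155 to 755 per library), was lower in all 6 bears as well. It was at 13.02 to 30.1 CPM in summer (median 15.6) and at 8.15 to 12.3 CPM in winter (median 9.25), and the groups did not overlap. The log2 fold change was −0.85 (SE 0.18, adjusted p = 0.00331). Bear 1511 had the highest summer level and fell by 1.68 on the log2 scale. Bear 1509 fell by only 0.14, and its winter library was the highest of the season. Genes of other cells of the biopsy moved in the same direction. The summed level of 6 fibroblast markers ran from 3099.7 to 7940.5 CPM in summer and from 234 to 1328 CPM in winter, with 5 of 6 markers lower (3 without the replicate block). Most of the summer sum came from the collagen genes COL3A1 (mean 3169 CPM in summer, 176 in winter) and COL1A1 (1437 and 59.7 CPM). Log2 fold changes of the other markers were −2.13 for LUM, −1.41 for FBLN1, −0.91 for DCN and −0.46 for PDGFRA, which was not called. The summed level of 6 endothelial markers ran from 606 to 941 and from 396 to 472 CPM, with 5 of 6 lower. Macrophage markers, at 85.9 to 134 CPM in summer and 38.7 to 74.9 CPM in winter, were lower for 4 of 6, and none of these lists had a marker at 0 in any library. In bulk tissue, fewer cells of a type and less mRNA of the marker genes per cell cannot be told apart. The part of these cells in the change of PDK2, of PDK3 or of any other gene described here was not tested.

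The summed level of 9 skeletal muscle markers was 122596 to 208434 CPM in summer and 136997 to 176033 CPM in winter, with 2 markers higher and 2 lower. This sum is a share of the reads and does not measure muscle content. The log2 fold changes of the lower markers were −1.02 for MB (adjusted p = 0.00066) and −0.91 for ACTA1 (adjusted p = 0.0152). Those of the higher markers were 0.65 for TTN (adjusted p = 0.00675) and 0.51 for NEB (adjusted p = 0.0149). CKM, the muscle creatine kinase, was the largest part of the sum, at a mean of 66969 CPM in summer and 68367 CPM in winter. Its log2 fold change was 0.04 (adjusted p = 0.893). The slow and fast fibre markers analysed, 4 of each, gave 0 calls in edgeR, with 1 gene, TNNI2 of the fast list, at an unadjusted p below 0.05 (log2 fold change −0.41, adjusted p = 0.0941). TNNI2 was also the 1 gene of the fast list called in DESeq2, which called 0 of the slow list, and limma voom called 0 of both. Adipocyte markers varied widely, from 18.2 to 491 CPM in summer and from 10.2 to 187 CPM in winter, again with 0 of 6 called in edgeR. At an unadjusted p below 0.05 there was 1 gene, LEP (log2 fold change 2.54, adjusted p = 0.0629), which DESeq2 and edgeR without the block called higher and limma voom did not. LEP, the leptin gene, was at 0 reads in the lowest library and 19 in the highest.

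PDP1, the calcium-stimulated phosphatase subunit of muscle, was called lower in winter. It was at 180 to 319 CPM in summer (median 242) and at 107 to 216 CPM in winter (median 147), and these ranges overlapped. The log2 fold change was −0.63 (SE 0.17, adjusted p = 0.0133). It fell by 0.28 to 1.31 on the log2 scale in 5 bears and stood at 0.02 in bear 1511. Bears 1317 and 1316 fell most, by 1.31 and 1.06.

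PDP2, the phosphatase subunit that does not depend on calcium, had only 22 to 76 reads per library. It was at 1.42 to 3.30 CPM in summer (median 2.13) and 0.924 to 1.93 CPM in winter (median 1.65). Its log2 fold change of −0.48 (SE 0.23, adjusted p = 0.126) was within the spread between bears, with 5 of 6 lower and bear 1305 at 0.32. A change of this size was not resolved here, and the part of read depth in this was not tested.

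PDPR, the regulatory subunit that binds PDP1 and lowers its activity, was at 103 to 147 CPM in summer (median 117) and 95.4 to 121 CPM in winter (median 108). Its log2 fold change was −0.16 (SE 0.11, adjusted p = 0.284), with 4 bears lower and 2 higher. Only bear 1317 moved by more than 0.26 on the log2 scale, at −0.62, and this bear also had the largest fall of PDP1 and of PDP2.

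**Figure D2:**
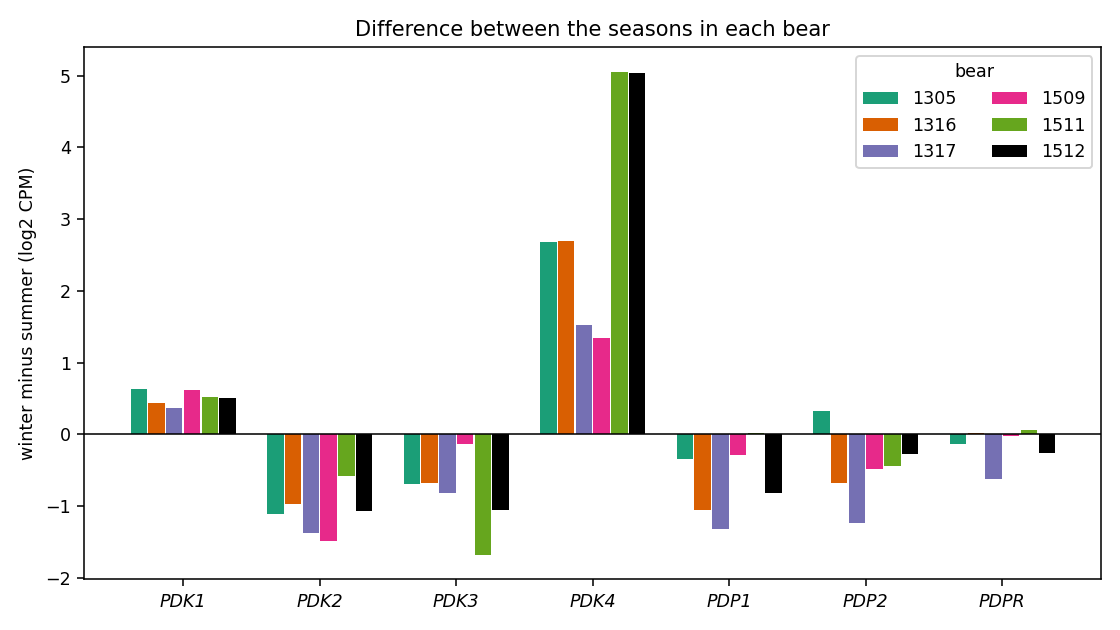
Winter minus summer (log2 CPM, y axis) for each of the 7 genes, with 1 bar per bear. The PDK4 bars run from 1.34 to 5.06 and the PDK1 bars from 0.37 to 0.63, all above 0, whereas those of PDK2 and PDK3 are all below 0.

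The balance between these genes was followed by ratios within a library, in which gene length cancels when the seasons are compared. These ratios are descriptions, with no test. The ratio of PDK4 to PDK2 was 17.8 times as high in winter as in summer (geometric mean over bears), and it rose in 6 of 6 bears, by 2.83 to 6.10 on the log2 scale. The ratio of PDK4 to PDK1 was 5.83 times as high and that of PDK4 to PDP1 12.9 times, both in 6 of 6 bears. Without PDK4 the kinases did not share a direction against PDP1. PDK1 to PDP1 was 2.21 times as high in winter, with 6 of 6 bears higher, and PDK2 to PDP1 was 0.724 times as high, with 5 of 6 bears lower. PDP1 to PDPR was 0.72 times as high, lower in 6 of 6 bears.

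The mRNA of the complex on which these enzymes act was lower in winter too. All 5 subunit genes were called lower, each in 6 of 6 bears, with a median log2 fold change of −0.65. PDHA1, the subunit that carries the phosphorylation sites, was at 605 to 828 CPM in summer and 279 to 632 CPM in winter, a log2 fold change of −0.65 (SE 0.13, adjusted p = 0.00273), and its partner PDHB stood at −0.52 (adjusted p = 0.00597). The E2 core subunit DLAT stood at −0.88 (adjusted p = 0.00116) and the shared E3 subunit DLD at −0.65 (adjusted p = 0.00566). The largest fall was that of PDHX, the E3-binding protein to which E3 attaches, at −1.09 (SE 0.14, adjusted p = 0.000243). PDK4 to PDHA1 was 13.1 times as high in winter as in summer, in 6 of 6 bears.

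Genes of the cofactors of the complex changed less evenly. Of 5 genes for the supply of its cofactors, 1 was higher and 2 were lower. The lipoic acid synthase LIAS had a log2 fold change of −0.45 (adjusted p = 0.00924), lower in 6 of 6 bears. The lipoyl transferase LIPT2 stood at 0.61 (adjusted p = 0.0178), higher in 5 of 6 bears. It was not called without bear 1305 (adjusted p = 0.0697), without bear 1512 (0.0613) or without the block (0.146). LIPT1 lay at 0.26 and was not called.

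Of 8 genes for the entry and other fates of pyruvate, 7 were tested (LDHA was not analysed here), and 5 were lower and 0 higher in edgeR, with 0 higher at an unadjusted p below 0.05, in DESeq2 and in limma voom. The pyruvate carrier subunit MPC1 fell by 0.70 on the log2 scale (adjusted p = 0.00371), while its partner MPC2 stood at −0.05 (adjusted p = 0.85). PKM, which encodes the pyruvate kinase that makes pyruvate, stood at −1.10 (adjusted p = 0.000436), and LDHB, the lactate dehydrogenase subunit of oxidative tissue, at −0.71 (adjusted p = 0.0116). PC, pyruvate carboxylase, stood at −1.23 (adjusted p = 0.00404). The cytosolic alanine aminotransferase GPT had the largest fall of the list, from 83.9 to 19.6 CPM on average, at −2.11 (SE 0.14, adjusted p = 7.99e-06), whereas the mitochondrial GPT2 was not called, at −0.23 (adjusted p = 0.389).

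BCKDK, the kinase that switches off the branched-chain 2-oxoacid dehydrogenase and belongs to the same protein family as the PDKs, did not rise with PDK4. It was at 56.1 to 88.3 CPM in summer and 19.4 to 40.5 CPM in winter, with no overlap, and its log2 fold change was −1.39 (SE 0.14, adjusted p = 5.64e-05). PPM1K, the phosphatase of that complex, fell in 6 of 6 bears from 24.4 to 78.7 CPM in summer to 9.57 to 13.6 CPM in winter, at −2.20 (SE 0.22, adjusted p = 6.52e-05). In the list of related dehydrogenases, 6 of 7 genes were lower and 0 higher in edgeR (0 higher at an unadjusted p below 0.05, in DESeq2 and in limma voom). Of the others, DBT stood at −1.74, BCKDHB at −1.18, OGDH at −1.01 and DLST at −0.73, with adjusted p values from 4.24e-05 to 0.00112, and BCKDHA at −0.14 was not called. Thus among the kinases and phosphatases of both complexes, PDK4 and PDK1 were the 2 genes called higher.

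**Figure D3:**
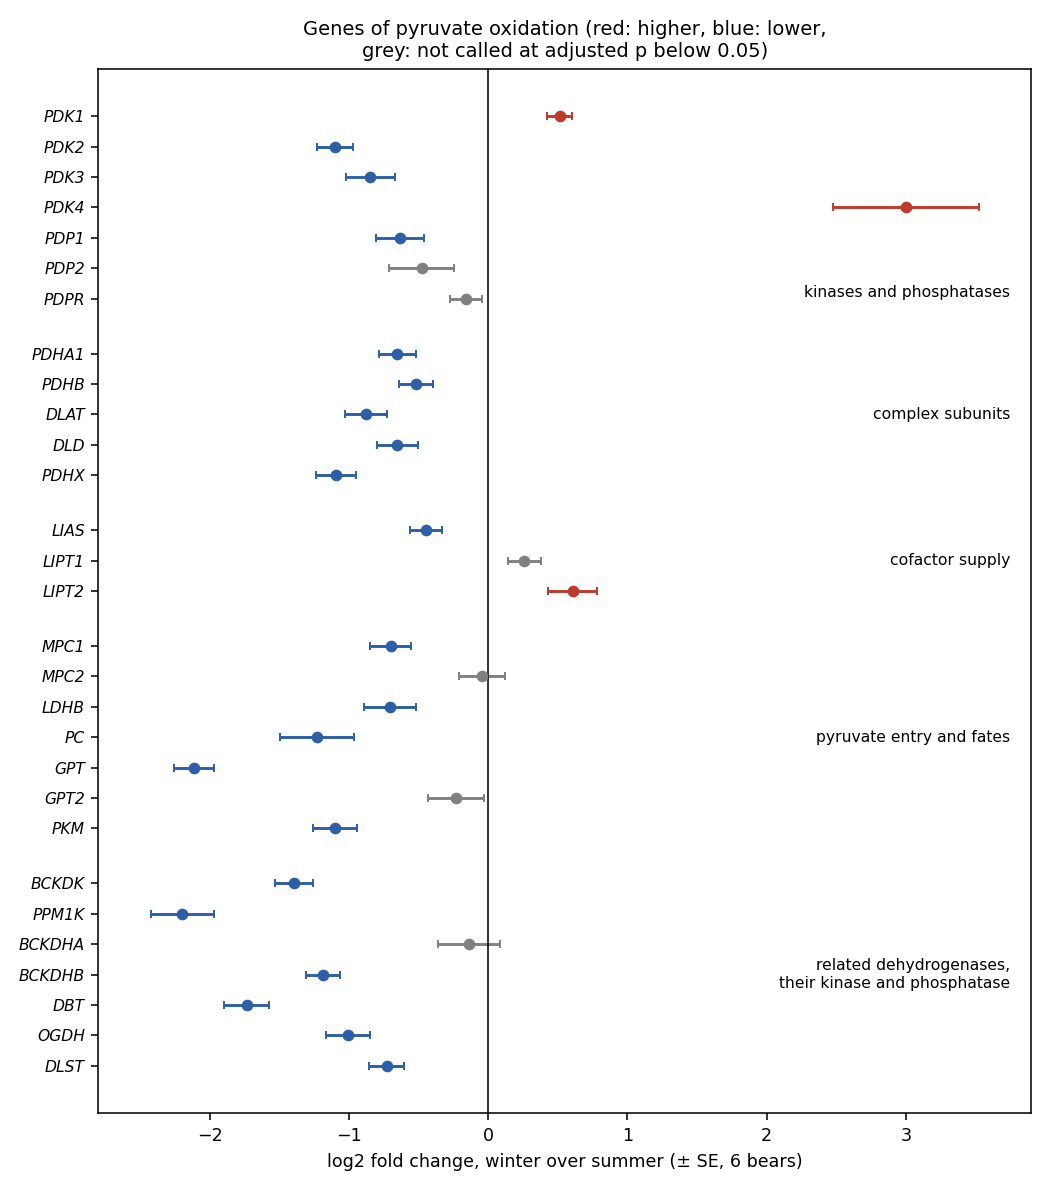
Log2 fold change, winter over summer, with its standard error (x axis), for the 7 kinase and phosphatase genes and genes of 4 lists of pyruvate oxidation, red where called higher, blue where called lower and grey where not called. PDK4, at 3.00, lies far to the right of the other genes, and all 5 complex subunits lie left of 0, between −1.09 and −0.52.

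Factors known to act on the PDK4 and PDK1 promoters were taken as a list of 12 genes, of which 2 were higher and 4 lower. FOXO3 rose from 52.7 to 91.4 CPM in summer to 99.8 to 134 CPM in winter, with no overlap, at a log2 fold change of 0.77 (SE 0.17, adjusted p = 0.00442). Bear 1317, with a high PDK4 level in summer, had the highest summer level of FOXO3, but bear 1512, with the lowest PDK4, had the next highest, at 83.2 CPM. NR3C1, the glucocorticoid receptor, stood at 0.40 (adjusted p = 0.0201), higher in 6 of 6 bears, but the call was lost when counts were scaled by library totals (adjusted p = 0.0999) and without bear 1305 (0.083) or bear 1316 (0.0579). FOXO1, at 0.13, and PPARGC1A, at −0.02, were not called.

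Several factors of the same list fell. PPARA, the fatty acid receptor, was at 83.0 to 157 CPM in summer and 44.5 to 79.0 CPM in winter, at −1.04 (SE 0.16, adjusted p = 0.000617), and PPARD stood at −0.96 (adjusted p = 0.00235). KLF15, a glucocorticoid-induced factor, stood at −1.32 (adjusted p = 0.00304), with 36 to 346 reads per library. ESRRA stood at −0.51 (adjusted p = 0.0322) and was not called without bear 1305 (0.0527), 1316 (0.0593) or 1317 (0.0698). HIF1A, the hypoxia factor known to act on PDK1, stood at −0.15 (adjusted p = 0.266).

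Of 15 genes known as targets of PPARs, as PDK4 is, 7 were higher and 3 lower, with a median log2 fold change of 0.63. ANGPTL4, which encodes an inhibitor of lipoprotein lipase, was at 0.31 CPM in the lowest and 4.20 CPM in the highest summer library and at 6.89 to 22.8 CPM in winter, a log2 fold change of 3.48 (SE 0.54, adjusted p = 0.00066). CPT1A, a carnitine palmitoyltransferase of fatty acid import, was at 23.5 to 59.6 CPM in summer and within 87.4 to 93.9 CPM in winter, at 1.29 (SE 0.18, adjusted p = 0.000296). SLC25A20, the carnitine carrier, stood at 1.04 (adjusted p = 0.000272). Each of these 3 genes was higher in 6 of 6 bears, with no overlap between the seasons.

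Among the members of this list that fell were LPL and FABP3. LPL, the lipoprotein lipase gene, fell in 6 of 6 bears at −1.70 (SE 0.26, adjusted p = 0.000612). FABP3, a fatty acid-binding protein gene, stood at −0.73 (adjusted p = 0.0376) and was lower in 5 of 6 bears. Leaving out bear 1305 (adjusted p = 0.117) or bear 1317 (0.091) ended its call, as did leaving out bear 1316 (0.0599) or bear 1509 (0.0511).

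In summer, CPT1A was highest in bears 1317 and 1509, at 59.6 and 51.8 CPM, the same bears that had the highest PDK4. The rest of the order differed. Bear 1316, with PDK4 at 101 CPM, had the lowest CPT1A, at 23.5 CPM. Bears 1511 and 1512, lowest in PDK4, had 31.6 and 28.1 CPM of CPT1A. For ANGPTL4 the order was another, with bear 1316 highest at 4.20 CPM and bears 1509 and 1317 next at 1.54 and 1.39 CPM. The low PDK4 levels of bears 1511 and 1512 stood beside ANGPTL4 at 0.718 and 0.313 CPM, but bear 1305, at 0.33 CPM of ANGPTL4, had 78.8 CPM of PDK4.

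**Figure D4:**
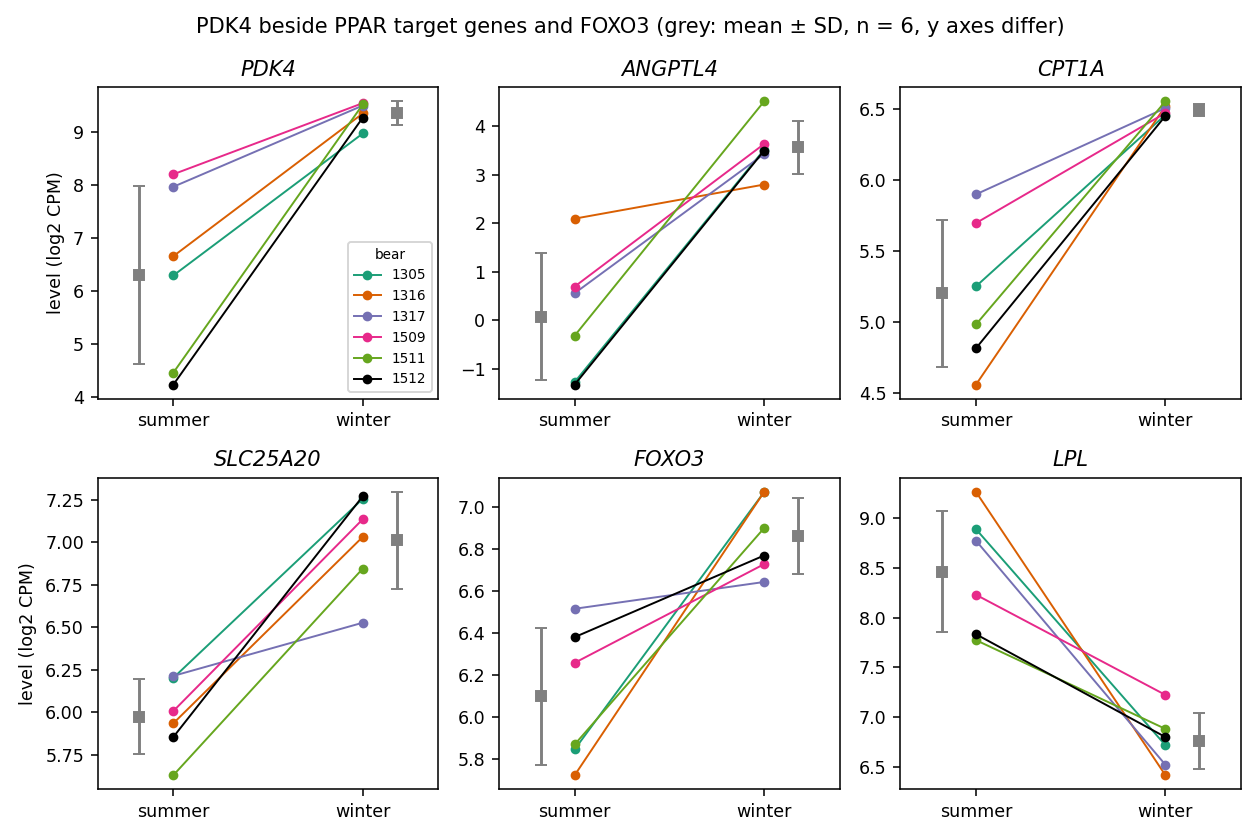
Level (log2 CPM, y axis, a different range in each panel) of PDK4, of 4 PPAR target genes and of FOXO3 in summer and winter, with a line per bear and grey squares for the mean ± SD of 6 bears. In winter the PDK4 and CPT1A lines of the bears come close together, and LPL is the gene that falls.

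By the Pearson correlation of log2 CPM over the 12 libraries, taken over the 10339 genes that had a symbol and reached a mean of 1 log2 CPM, the 3 genes most like PDK4 were ANKRD34A (r = 0.95), ZRANB3 (0.94) and MOAP1 (0.93). ANKRD34A followed the same order of bears at the top in summer, at 41.8 CPM in bear 1509 and 17.2 CPM in bear 1317, against 5.63 to 9.62 CPM in the other bears, and 61.4 to 107 CPM in winter. Most like PDK1 were SETD6 (0.97), MED20 (0.95) and U2AF1L4 (0.95), and most like PDK2 were COL5A3 (0.98), NEURL1 (0.98) and KEAP1 (0.97). PDK3 was most like HOXB6 (0.97), SESN1 (0.96) and TSPAN2 (0.95), and PDP1 was most like VWA8 (0.95), ACSL1 (0.95) and SPATA7 (0.93). These values describe likeness only, since each of these genes was called between the seasons and all genes share the libraries.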

How the data were processed

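Libraries were prepared with a stranded mRNA kit and sequenced as single reads of 50 bases. The authors aligned them with TopHat2 2.1.1 to the brown bear assembly ASM358476v1 and its gene models, and discarded alignments with more than 3 mismatches. They counted reads per gene with featureCounts 1.6.2, taking reads that mapped to the strand opposite to the gene. The deposited values are these raw counts. How reads shared by paralogs were handled is not given in the sources used here, and lanes are not assigned in the labels, so a lane effect was not tested.

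Genes were tested where their reads summed to 30 or more over the 12 libraries. TMM-scaled counts were fitted with season and bear as terms (glmQLFit and glmQLFTest, edgeR 4.0.16, R 4.3.3), with p values adjusted over all 17290 genes. Standard errors were taken as the log2 fold change divided by the square root of F. The study's methods name DESeq2 and paired biopsies but no formula. The bear number in the titles pairs the libraries. After each season's mean was subtracted, libraries of 1 bear correlated at 0.0903 to 0.344 (median 0.237). Those of different bears correlated at −0.214 to 0.142 (median −0.0634), so the ranges overlapped. Each library is 1 animal in 1 season, so n counts bears.

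Alternatives were a fit without the block, DESeq2 1.42.0, limma voom (limma 3.58.1), other scalings, filters and thresholds, and each bear left out. The fits were also run on simulated counts in which a changed gene had the same expected change in every bear. The outcome is not reported here. The 7 genes, the gene lists and the naming rule were chosen with earlier results of these data known. Named were the 7 genes, the called genes of the pyruvate and regulator lists, the 3 largest called rises and falls of the PPAR target and mitochondrial lists, and for each called gene of the 7 the 3 genes of highest correlation. Other genes named, such as uncalled members of lists, were chosen after their values were seen. No gene lengths were used, so levels were not compared between genes. Some genes that the lists or this rule cover are not reported here by name.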

Additional observations from a re-analysis of the deposited data

Results flagged for a closer look

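In the winter libraries, PDK3 of bear 1509 lay apart from the other bears. It was at 3.63 log2 CPM, the nearest of the others was at 3.24 and the lowest at 3.04, and this gap was 0.668 of the range, above Dixon's 95% critical value for 6 samples. Of 14 such groups examined, 7 genes in 2 seasons, this was the 1 that passed, and chance passes about 1 in 20. Without bear 1509 the log2 fold change of PDK3 was −0.98, and PDK3 was called lower with and without that bear.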

How the results depend on the processing

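The direction of the 7 genes and their call at adjusted p below 0.05 held under all 14 alternative fits for each of them. Adjusted p over these alternatives was at most 0.0129 for PDK1, 0.000894 for PDK2, 0.015 for PDK3, 0.00529 for PDK4 and 0.0458 for PDP1, and at least 0.0591 for PDP2 and 0.196 for PDPR. The log2 fold change of PDK4 ran from 2.38, with no replicate block, to 3.38, without bear 1509. With no replicate block that of PDK2 was −1.07 and that of PDP1 −0.63, and the block changed the call of none of the 7 genes. Under the stricter rule (adjusted p below 0.01, winter/summer fold above 1.3 or under 0.77), PDP1 was not called, and 2115 of all genes were higher and 2325 lower, against 3392 and 3663. Of the cofactor genes, 0 were higher and 1 lower with no replicate block, and 0 and 1 in DESeq2 with no replicate block. With single bears left out, 0 to 1 were higher and 1 to 2 lower. Of the regulators, 1 was higher with library totals, and 1 to 2 with single bears left out. Of the PPAR targets, 1 to 3 were lower with single bears left out. Library totals in place of TMM moved the median of all genes to −0.08. PDP2 had the fewest reads of the 7 genes, at 22 to 76 per library, and the effect of depth was not tested.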

Other observations

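Of 11 genes taken to follow mitochondrial content, 8 were tested, with 1 higher, 2 lower and a median log2 fold change of −0.21. TOMM20, an import receptor of the outer membrane, was higher in 6 of 6 bears at 1.24 (SE 0.11, adjusted p = 3.18e-05). HSPD1, the matrix chaperonin, stood at −0.68 (adjusted p = 0.00123) and the outer membrane channel VDAC1 at −0.45 (adjusted p = 0.014), both lower in 6 of 6 bears. CS, citrate synthase, was lower in 6 of 6 bears but not called, at −0.29 (adjusted p = 0.13).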
